A study of Brassica rapa with 8 samples.

Results

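Leaf and root of 7-week-old plants of *Brassica rapa* accession Chiifu-401-42 were compared through the abundance of their messenger RNA, with 2 samples of each organ. The comparison centred on genes that were on in both samples of one organ and off in both samples of the other, and on how far the most abundant genes dominated each organ. A gene was called on in a sample where the lower bound of its deposited 95% confidence interval lay above 0, and off where that bound was 0. FPKM, the fragment count of a gene scaled by its exon length in kilobases and by the fragments mapped in the sample, was the unit throughout. Of 38200 gene models, 1130 were on in leaf and off in root, and 2476 were on in root and off in leaf. These are 2.96% and 6.48% of all gene models. A further 22663 genes were on in all 4 samples and 8325 in none of them.

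Poly(A)+ RNA of all 4 samples came, per the labels, from greenhouse plants kept in sunlight between 15 and 25°C. The methods of the study instead state a single greenhouse temperature within this range. The labels give no treatment, transgene or mutation in either group. The labels name the samples biological replicates 1 and 2 of each organ, and the methods of the study state that both samples of an organ derived from separate batches of plants. Stem, also at 7 weeks, open flowers, siliques at 15 days after pollination and callus from tissue culture had 1 sample each and served here as tissues that played no part in choosing the genes. The depth implied by the confidence intervals was about 19400000 fragments in leaf 1, 12900000 in leaf 2, 19500000 in root 1 and 13000000 in root 2, and from 10200000 to 13000000 in the other tissues. Sample 1 of each organ was therefore the deeper one, with 26096 genes on in leaf 1 against 24593 in leaf 2 and 28122 in root 1 against 26596 in root 2. The samples kept to their labels in their most abundant genes. Of the 100 genes of highest FPKM, 76 were shared by both leaf samples and 71 by both root samples, against 17 to 22 between a leaf and a root sample. A whole organ is a mixture of cell types, and fewer cells of a type cannot be told apart from less RNA per cell.

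Leaves and roots divide the work of the plant. Leaf mesophyll cells hold the chloroplasts, whose light-harvesting complexes, photosystems and carbon-fixing enzyme Rubisco are encoded in part by nuclear genes that are among the most abundant messages of green tissue. Roots take up water and mineral nutrients through a surface of root hairs and transporters, export them to the shoot through the xylem, and live on sugar made by the leaves. The gene models are known here by identifier only. The table pairs no identifier with a gene name, and the reference gene list used here, of assembly CAAS_Brap_v3.01, held 1 of them, Bra000116, given there as SWEET9. In *Arabidopsis* SWEET9 is a sucrose transporter of nectaries. Bra000116 was listed at 0 in all 4 leaf and root samples and had an FPKM of 134 in flower, so it belonged to neither list. With no names to match, marker genes of leaf and root and gene families were not analysed here.

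The genes on in leaf and off in root ran to higher levels than those on in root and off in leaf. Their mean FPKM over both leaf samples had a median of 3.69 (quartiles 1.18 and 13.5) and ran up to 767. The genes on in root and off in leaf had a median of 1.84 in root (quartiles 0.813 and 4.76) and ran up to 222. All genes on in both samples of an organ had a median of 7.37 in leaf and 8.46 in root, so both lists lay low in the range of their organ. Mean FPKM exceeded 50 for 111 of the leaf genes (9.82%) and 45 of the root genes (1.82%), against 10.5% and 10.6% of all genes on in leaf or root. At the other end, 245 of the leaf genes (21.7%) and 754 of the root genes (30.5%) had a mean under 1. Together the 1130 leaf genes made up 3.34% and 3.17% of the summed FPKM of leaf 1 and leaf 2, and the 2476 root genes 2.27% and 2.21% of root 1 and root 2. The root list was the longer one and held the smaller share of its organ. The gap in length was smaller for genes of clear level, since an FPKM of at least 5 in both samples of one organ and under 0.5 in both of the other was met by 593 genes for leaf and 674 for root.

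A few members carried much of each list. The 10 highest leaf genes made up 19.1% of the summed mean FPKM of their list and the 100 highest 65.2%, while the corresponding values for the root list were 9.58% and 40.9%. The member with the highest level in leaf was Bra032345, on Scaffold000081 from 420261 to 420737, with an FPKM of 497 in leaf 1 and 1037 in leaf 2, where the root samples had 0.171 and 0.256. Each of those root values corresponds to 1 fragment, and the leaf values to 2900 and 4005 fragments. Bra036950, on Scaffold000123 from 294511 to 295962, followed with 501 and 738 in leaf and 0.257 and 0.0964 in root. Bra033787 had 378 and 559 in leaf and 0.503 and 0.754 in root. The higher of the leaf samples was leaf 2 in all 3 of these genes. Leaf 1 was the higher one for Bra000687, with 479 and 433 in leaf and 0.291 and 0.436 in root. Bra001653 was also higher in leaf 1, at 428 against 281 in leaf 2, with 0.214 in root 1 and a value listed at 0 in root 2. The other 5 of the 10 were Bra005424, Bra034200, Bra037380, Bra035535 and Bra025297. The locus of Bra035535 overlaps another gene, so its reads may be shared. Across all 10, no leaf value lay below 227 and no root value above 0.754, and leaf 2 was the higher leaf sample in 7.

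The highest member of the root list was Bra037222, on Scaffold000127 from 43317 to 44333, with an FPKM of 197 in root 1 and 248 in root 2, where leaf 1 had 0.147 and leaf 2 was listed at 0. Bra034640 had 136 and 208 in root, while leaf 1 had 0.212 and leaf 2 had 0. Bra002271, on Scaffold000002 from 2229083 to 2230807, had 148 and 187 in root, while leaf 1 had 0.244 and leaf 2 had 0. Root 2 was higher than root 1 in each of the 3. Bra038516 ran the other way, with 201 in root 1 and 87.3 in root 2, against 0.283 in leaf 1 and 0 in the other leaf sample. Bra020868 was listed at 0 in both leaf samples and had 123 and 136 in root. Bra004769 had 116 and 137 in root and 0.346 and 0 in leaf, and its locus of 35620 bases spans other gene models, so its reads may be shared. The remaining 4 of the 10 were Bra037204, Bra003939, Bra003664 and Bra001631. Over all 10, root values lay between 87.3 and 248, leaf values reached at most 0.346, and root 2 was the higher root sample in 9.

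**Figure D1:**
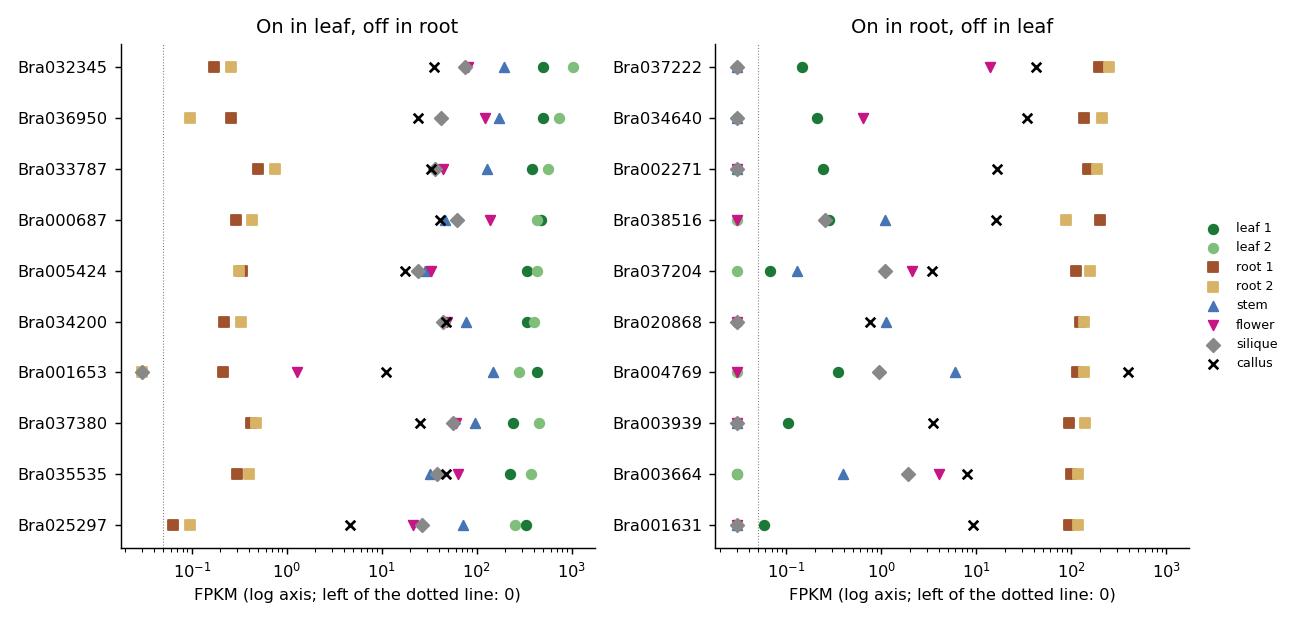
FPKM on a log axis in all 8 samples for the 10 genes of highest mean on in leaf and off in root (left) and on in root and off in leaf (right); each point is 1 sample, and points left of the dotted line are listed at 0. The leaf genes keep values of at least 28.5 in stem, while the root genes lie at 5.92 or below in stem and are all on in callus.

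Being off was not the same as being listed at 0. Of the leaf genes, 366 (32.4%) were listed at 0 in both root samples, 373 in one of them and 391 in neither. Among the root genes 1043 (42.1%) were listed at 0 in both leaf samples, 766 in one and 667 in neither. The highest off value was 0.963 for the leaf list, in Bra009772, and 1.52 for the root list, in Bra024566. Summed over the lists, the off level came to 87.4 FPKM in root 1 and 89.4 in root 2 for the leaf genes, and to 171 in leaf 1 and 171 in leaf 2 for the root genes. These are between 0.0129% and 0.0248% of a sample's summed FPKM. The shallower sample of each organ had more genes at 0, with 491 leaf genes at 0 in root 1 and 614 in root 2, and 1223 root genes at 0 in leaf 1 and 1629 in leaf 2. Of the 100 highest root genes, leaf 2 was at 0 for 72 and leaf 1 for 23. Of the 100 highest leaf genes, root 2 was at 0 for 33 and root 1 for 25. The part of depth in these counts was not tested.

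A lower bound above 0 required more than 4 fragments in nearly every case, so membership at the edge turned on single fragments. Rounded to whole fragments, 15 of the leaf genes and 36 of the root genes rested on 4 in at least one sample of their organ, and 241 (21.3%) and 812 (32.8%) on fewer than 10. Just inside, Bra001766 had an FPKM of 0.300 and 0.201 in leaf and 0.133 and 0.149 in root, from 9 and 4 fragments in leaf and 4 and 3 in root. Just outside, Bra009047 had 5.24 and 4.06 in leaf but was on in one root sample, at 0.163 from 4 fragments. In the other direction Bra028394 lay just inside with 0.792 and 0.950 in root, from 5 and 4 fragments, and 0.159 and 0.479 in leaf. Bra002694 was kept out by leaf 2, where its 1.57 came from 4 fragments, with 4.07 and 4.50 in root. There were 579 genes on in both leaf samples and one root sample, and 1197 on in both root samples and one leaf sample. Some of the lowest members had intervals narrower than counting error alone allows, and these lay in overlapping loci. Bra030774, the lowest leaf gene, had 0.0478 and 0.0238 in leaf and 0 in both root samples. Bra024592, the lowest root gene, had 0.00332 and 0.00128 in root and 0.00439 in leaf 1, so its off value exceeded both values that were on. Intervals of this kind occurred in 7 leaf genes and 13 root genes, and overlapping loci in 91 and 183, against 7.93% of all gene models.

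The samples of one organ differed by a similar median for the members and for all genes of that organ, while the share of members with a large difference was higher. The median leaf gene differed between leaf 1 and leaf 2 by 0.41 on the log2 scale, the same value as for all genes on in both leaf samples. The median root gene differed by 0.43, against 0.38 for all genes on in both root samples. A difference of at least 2-fold between samples of one organ was seen for 146 leaf genes (12.9%, against 9.13% of all genes on in leaf) and 360 root genes (14.5%, against 8.23% in root). Sample 2 was the higher one for 345 of the 1130 leaf genes and 859 of the 2476 root genes. The median difference of sample 2 from sample 1 was -0.25 on the log2 scale in the leaf list and -0.22 in the root list, against -0.35 and -0.29 for all genes on in leaf or root.

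Stem and flower, which had no part in the choice, had most of the leaf list on and less of the root list. Stem had 72.0% of the leaf genes on (814) and 21.0% of the root genes (520), while 67.2% of all genes were on. In flower 71.9% of the leaf genes (813) and 32.5% of the root genes (805) were on, against 69.3% of all genes. The leaf genes stood near this background in stem and flower, and the root genes below it. Silique had 49.0% of the leaf genes on (554) and 31.0% of the root genes (768), against 66.3% of all genes. Callus was the only tissue in which the root list had the larger share. It had 61.0% of the root genes on (1510), against 53.2% of the leaf genes (601) and 68.2% of all genes. Judged by the depth derived for each sample, intervals were narrower than counting error alone allows in 1083 genes in callus, 447 of them on. The count was 59 to 75 genes in each other sample. Whether the intervals or the derived depth gave the callus count was not tested. Calls of on in callus may therefore be less secure, and the part of this in the lists was not tested. All genes on in both leaf samples were on in 96.5% of cases in stem and 92.0% in callus, and those on in both root samples in 89.5% and 90.4%. Both lists stood below these shares. The rule left genes on in both organs out of the lists, and the lists also lay lower in level. The part of either was not tested. Each of these tissues has 1 sample, so the shares have no replicate check and no test was made.

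**Figure D2:**
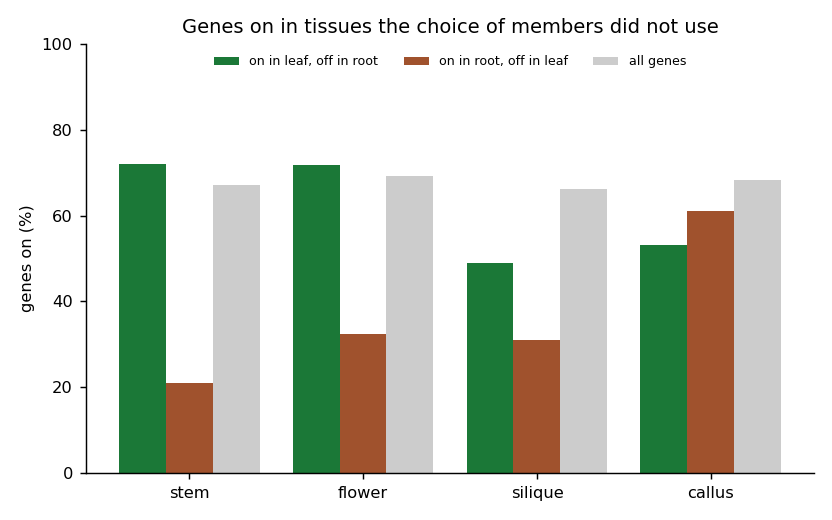
Percentage of genes on in stem, flower, silique and callus, 1 sample each, for the 1130 genes on in leaf and off in root (green), the 2476 genes on in root and off in leaf (brown) and all 38200 genes (grey). The green bars run from 49.0% in silique to 72.0% in stem, and the brown bars from 21.0% in stem to 61.0% in callus.

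Few members of either list were on in all 4 other tissues when set beside the whole table. Stem, flower, silique and callus were all on for 288 of the leaf genes (25.5%), the most frequent pattern of that list, and for 116 of the root genes (4.68%), against 53.8% of all gene models. The corresponding share was 82.3% of all genes on in both leaf samples and 75.8% of those on in both root samples. The rule left genes on in both organs out of the lists but not out of these sets. A lower share of the lists is thus partly built in, and the part of this was not tested. Callus was the only other tissue on for 671 root genes (27.1%), the most frequent pattern of the root list. The same pattern was seen for 40 leaf genes (3.54%), 3.72% of all gene models and 3.19% of all genes on in both root samples. The limit on intervals in callus applies to this pattern too. No other tissue was on for 489 root genes (19.7%) and 84 leaf genes (7.43%), against 16.6% of all gene models. This share was 2.19% of all genes on in both root samples and 0.538% of those on in both leaf samples. Stem alone was on for 93 leaf genes (8.23%), stem with flower for 105 (9.29%), and stem, flower and silique for 137 (12.1%), against 1.98%, 1.60% and 2.73% of all gene models. These 3 patterns made up 1.16%, 1.72% and 3.39% of all genes on in both leaf samples. The highest of all 8 samples was a leaf sample for 590 leaf genes (52.2%), flower for 181, stem for 177, silique for 95 and callus for 87. For the root genes it was a root sample in 1408 cases (56.9%), callus in 493, silique in 314, flower in 194 and stem in 67. The rule keeps the other organ low, and the own organ has 2 samples against 1 of each other tissue. These counts were not set beside all genes and are a description.

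The members of highest level stood near other abundant genes of their organ in some tissues and below them in others. Of the 111 leaf genes with a mean above 50, stem had 110 on, flower 110, silique 90 and callus 86, with a median FPKM of 25.1, 17.6, 4.42 and 4.03. Of the 45 such root genes, 44 were on in callus with a median of 11.8, against 11 in stem, 19 in flower and 10 in silique. Among all genes on in both samples of an organ with a mean above 50 there, each of these tissues was on for at least 96.7% of the leaf genes and 92.8% of the root genes. The 99.1% of leaf members on in stem and the 97.8% of root members on in callus were thus close to the 99.9% and 98.9% of all such genes. In silique and callus the leaf members had 81.1% and 77.5% on, and in stem, flower and silique the root members had 24.4%, 42.2% and 22.2%. Genes on in both organs were kept among all such genes but not among the members, and the part of this was not tested. Bra032345, the highest leaf gene, reached 193 in stem and 81.3 in flower, and kept 75.9 in silique and 35.4 in callus. Bra001653 was narrower, with 150 in stem, 1.28 in flower and 0 in silique. Bra037222, the highest root gene, had 42.7 in callus and 13.8 in flower and was listed at 0 in stem and silique. Callus exceeded the root mean in 1 of the 10 highest root genes, Bra004769, at 393.

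Some members reached their highest level far outside the organ that placed them on a list. Bra020846 had 1.5 and 0.718 in leaf, 0.0365 and 0 in root, and 1549 in stem. Bra016073 had 15.1 and 12.4 in leaf, 2951 in flower and 665 in silique, and was listed at 0 in both root samples. Bra028980 had 13.9 and 18.4 in leaf and 1434 in silique. On the root side, Bra035804 had 0.330 and 0.329 in root against 5761 in silique, and Bra033549 had 59.3 and 47.9 in root against 2119 in callus. Bra018067 was at 57.9 and 50.6 in root and at 468 in flower. For such genes the list records a difference between leaf and root at a level small beside another tissue. Bra029732 and Bra028761 were the members of highest FPKM in callus of the leaf list and in stem of the root list, at 325 and 68.6.

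The gene models of both lists had lower median coding lengths than all gene models for which a length could be derived, and than all genes on in their organ. The width of the confidence intervals gives the length over which fragments were counted. This length was checked in 21471 genes with no overlapping locus and a moderate number of fragments in their deepest sample. In this set 93.9% of lengths fell within 0.5 bases of a multiple of 3, as for coding lengths without untranslated regions. The study states that its gene models rest on open reading frames only. The derived lengths are therefore called coding lengths here, though those outside this set, such as genes of few fragments, were not checked. Median coding length was 957 bases for the leaf genes and 960 for the root genes. It was 1080 for the 33088 of all gene models for which it could be derived. For all genes on in both samples of leaf or root it was 1152 and 1134. The coding length equalled the span of the locus, to within 1%, for 106 of the 1125 leaf genes (9.42%) and 212 of the 2467 root genes (8.59%) for which it could be derived. Among genes with a derived length, the corresponding share was 4.54% of all gene models and 1.68% of all genes on in both leaf samples. It was 2.04% of those on in both root samples and 1.17% of the genes on in all 4. Such a match points to a model with no intron between its coding ends. The study's count of expressed genes with more than a single exon leaves a larger share without introns than these. The match may therefore miss many intronless models, such as those whose locus runs beyond the coding sequence. Whether intronless models as such were more frequent in the lists was not tested. A shorter gene yields fewer fragments at the same FPKM, and the part of this in the lists was not tested. Among the 10 highest members coding lengths ran from 300 bases in Bra032345 to 801 in Bra025297 for leaf, and from 243 in Bra034640 to 894 in Bra001631 for root.

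Some members of each list lay side by side. A neighbouring gene of the same list was present for 166 of the leaf genes (14.7%) and for 492 of the root genes (19.9%). Over all gene models, 5.72% had a neighbour from the leaf list and 12.3% one from the root list. No test was made of these shares, and 140 and 411 genes had such a neighbour when overlapping loci were left out. The leaf list held 70 pairs, 6 runs of 3 and 2 runs of 4, and the root list 191 pairs, 28 runs of 3, 4 runs of 4 and 2 runs of 5. One run of 4 on Scaffold000003, from 5122650 to 5162357, was made up of Bra004057, Bra004058, Bra004059 and Bra004060. Bra004057 had 22.5 and 18.6 in leaf, 97.8 in stem and 111 in flower. Bra004060 had 4.32 and 6.14 in leaf and 376 in flower. All 4 were on in stem, flower, silique and callus, and the last 3 of them have overlapping loci. The other run of 4, Bra039327 to Bra039330 on Scaffold000163 from 278845 to 296187, lay between 0.609 and 19.4 in leaf. In the root list, Bra031715, Bra031717, Bra031718, Bra031719 and Bra031720 formed a run of 5 on Scaffold000077 from 861168 to 889164. Bra031715 had 10.2 and 14.8 in root, and the other members of this run between 0.537 and 1.84, with 0.0901 as the highest leaf value of all 5. Bra005045 to Bra005049, on Scaffold000004, formed the second run of 5, in which Bra005048 and Bra005049 occupy the same locus.

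Beyond the genes that were on in one organ and off in the other, leaf and root differed in level over a large part of the genes tested. On log2(FPKM + 1), limma gave an adjusted p under 0.05 to 13109 of 25725 genes (51.0%), with 4204 higher in leaf (16.3%) and 8905 higher in root (34.6%). The median gene was lower in leaf by a log2 difference of -0.47, and the shift was -0.33 after scaling to the same upper quartile. Centring each sample on its median gene, an alternative added once the values were known, gave 6031 genes higher in leaf and 7137 higher in root. Genes on in all 4 samples made up 2999 of the leaf calls (71.3%) and 6649 of the root calls (74.7%). They also made up 21976 of the 25725 genes tested, so that most calls were differences in degree largely follows from the genes tested. Among the calls on in all 4 samples, a difference of at least 3 on the log2 scale was seen for 718 genes higher in leaf and 551 higher in root. The counts moved with the samples included, to 8439 calls without leaf 2, 7215 without root 1 and 7958 without root 2, of which 4945, 4387 and 5237 were higher in root. Without root 2 the calls higher in leaf came to 2721. In every call the differences of leaf 1 from root 1 and of leaf 2 from root 2 had the sign of the call. Choosing genes by their adjusted p largely fixes this. Over all 25725 genes tested, the leaf and root values did not overlap in 19512.

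Genes entered this test where 2 or more of the 4 samples had an FPKM of 1 or above, which kept 827 of the 1130 leaf genes and 1533 of the 2476 root genes. Of these, 825 and 1531 had an adjusted p under 0.05, which the rule that chose them largely fixes and which is given as a description. The remaining 303 and 943 members were too low to be tested.

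**Figure D3:**
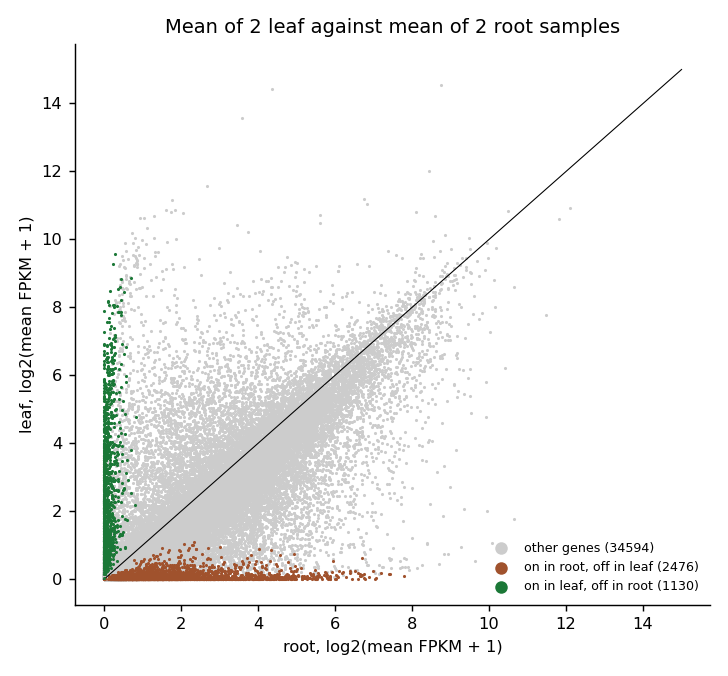
Log2(mean FPKM + 1) over 2 leaf samples against the same over 2 root samples for 38200 genes; each point is 1 gene and the line marks equal levels. Genes on in leaf and off in root (green) climb to a mean of 767 along the left edge, while those on in root and off in leaf (brown) reach 222 along the bottom.

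The largest differences on the log2(FPKM + 1) scale were in genes other than the members of both lists. Adding 1 limits the difference of members, whose off values are low, so this order against the members holds for that scale only. Bra028181, on Scaffold000060 from 679079 to 680073, had 12016 in leaf 1 and 31653 in leaf 2 against 15.9 and 23.5 in root, a log2 difference of 9.90 ± 0.49 (SE, n = 2 each, limma with Benjamini-Hochberg adjusted p = 2e-05). Bra028174 had 5963 and 18296 in leaf and 8.45 and 13.4 in root, a difference of 9.81 ± 0.54. The locus of Bra028174 contains part of Bra028181, and both ranked the 8 samples in the same order, so their reads may be shared and they may not be separate observations. Bra010807 had 1513 and 1652 in leaf and 1.28 and 0.526 in root (9.73 ± 0.28), and its samples stood closer together. Bra039070 and Bra018144 followed with 9.56 ± 0.28 and 9.48 ± 0.30. In the direction of root, Bra027358 had 889 and 1286 in root, where leaf had 2.16 and 0.0666, a log2 difference of -9.19 ± 0.51 (limma, adjusted p = 2.7e-05). Bra026653 had 508 and 1067 in root, 0.902 in leaf 1 and a value listed at 0 in leaf 2 (-9.06 ± 0.45). Bra003699 had 2060 and 1139 in root, where leaf had 3.84 and 1.05 (-8.93 ± 0.47), and callus exceeded both root samples with 5424. Bra034060 and Bra012363 followed with -8.40 ± 0.37 and -8.31 ± 0.32. The locus of Bra034060 overlaps another gene, so its reads may be shared. All 10 genes kept their direction and an adjusted p under 0.05 in every alternative in which they were tested.

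Abundance was more concentrated in leaf than in root. The 10 genes of highest FPKM held 5.21% of the summed FPKM in leaf 1 and 16.3% in leaf 2, against 2.52% in root 1 and 3.79% in root 2. The top 100 held 15.9% and 28.5% in leaf and 10.3% and 13.2% in root, and the top 1000 held 45.7% and 57.1% against 37.5% and 43.5%. It took the 1267 most abundant genes in leaf 1 and 631 in leaf 2 to reach 50% of the sum, against 1915 in root 1 and 1410 in root 2. In each of these measures both leaf samples lay beyond both root samples, and the leaf samples stood further from each other than the root samples did. The difference in the top 10 share was 7.61 percentage points (10.8 ± 7.86 in leaf and 3.16 ± 0.897 in root, SD, n = 2). The two-sided exact permutation test gave p = 0.333 for each of the 5 measures, which is the smallest value that 2 samples against 2 allow. Leaf exceeded root in the top 10 share by 2.69 percentage points in sample 1 and by 12.5 in sample 2, and sample 2 was the more concentrated one in both organs. Without leaf 2 the difference in the top 10 share fell to 2.05 percentage points, without leaf 1 it was 13.2.

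**Figure D4:**
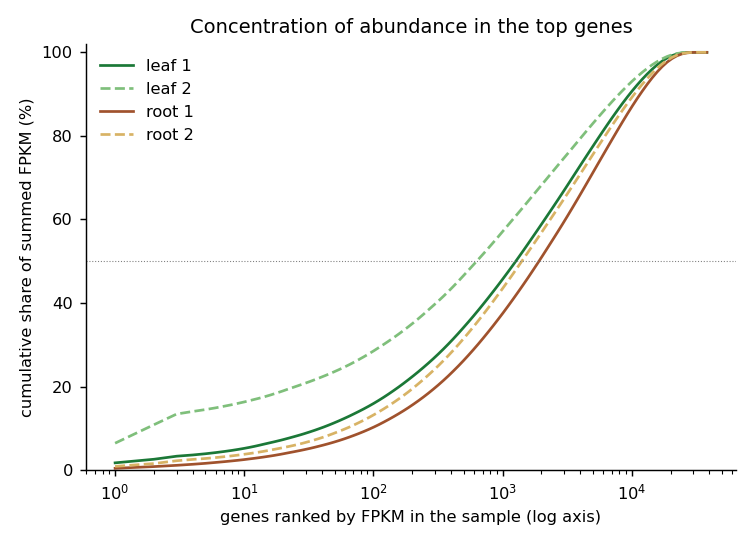
Cumulative share of the summed FPKM (%) held by the most abundant genes of each sample, ranked within the sample on a log axis; solid lines are sample 1 and dashed lines sample 2. The curves cross the dotted line at 50% after 631 genes in leaf 2, 1267 in leaf 1, 1410 in root 2 and 1915 in root 1.

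At the top of leaf stood a few genes of very high value. Bra041155, on Scaffold001723 from 39 to 765, took 6.44% of the summed FPKM of leaf 2, with 46077 FPKM, and 0.194% of leaf 1, with 1343 FPKM. It had 159 and 695 in root and 128522 in callus. Both organs were higher in sample 2. Bra028181 and Bra028174 took 1.74% and 0.862% of leaf 1 and 4.43% and 2.56% of leaf 2, and under 0.004% each in the root samples. Without Bra041155, the top 10 held 5.22% and 10.9% in leaf and the same shares as before in root. Without overlapping loci, which removes Bra028181 and Bra028174, the top 10 held 3.45% in leaf 1, below the 4.16% of root 2, and 11.6% in leaf 2. The single highest gene also left the groups overlapping there, with 0.817% in leaf 1 and 0.975% in root 2, and again when shares were taken of fragments, with 0.806% and 0.873%. The top 100 and top 1000 shares stayed higher in both leaf samples than in either root sample under these 3 choices, of which the count of fragments alone was planned.

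**Figure D5:**
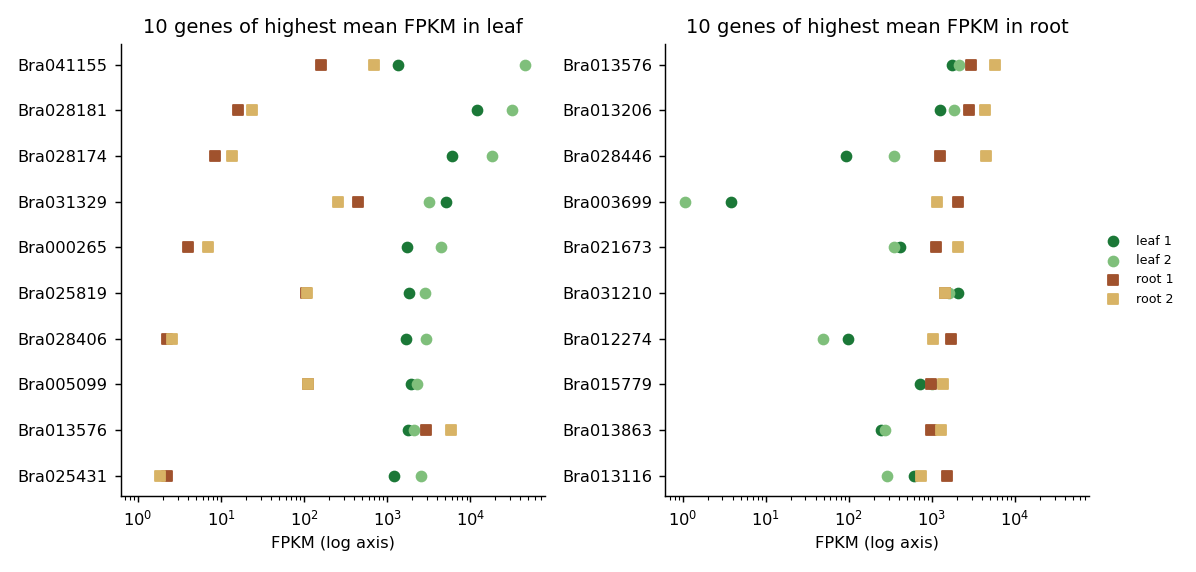
FPKM on a log axis in the 2 leaf (circles) and 2 root (squares) samples for the 10 genes of highest mean FPKM in leaf (left) and in root (right); each point is 1 sample. Leaf genes such as Bra028406 (1667 and 2938 in leaf, 2.26 and 2.54 in root) stand far from their root values, whereas Bra031210 in root (1445 and 1429) lies below its leaf values (2041 and 1600).

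The most abundant genes of leaf stood further above root than those of root stood above leaf. Of the 100 genes of highest mean in leaf, 74 had a mean at least 4-fold that of root, and 53 at least 100-fold, while 36 had a mean above 50 in root. Of the 100 highest in root, 39 were at least 4-fold above leaf and 9 at least 100-fold, and 81 still had a mean above 50 in leaf. The median ratio to the other organ was 166 for the leaf genes and 2.62 for the root genes. These genes were ranked on the same samples, so the ratios are a description. Only 18 genes were among the 100 highest of both organs. Bra013576 was first in root, with 2928 and 5794, and ninth in leaf, with 1758 and 2115, and it had 8712 in silique. Bra013206, the second in root, had 2794 and 4379 there and 1263 and 1828 in leaf. Bra028446 followed with 1259 and 4455 in root, 91.4 and 345 in leaf, so that its root samples differed more than those of the genes above it. In leaf, Bra031329 had 5068 and 3204 and reached 5666 in stem, with 444 and 254 in root. Bra000265 had 1740 and 4383 in leaf, 3.95 and 6.90 in root and 46.4 in stem. Bra025431 had 1218 and 2532 in leaf and 2.26 and 1.83 in root. Among the 100 highest genes of leaf, 2 were on in leaf and off in root, and among those of root 0 were on in root and off in leaf. Means above 1000 FPKM were reached by 32 genes in leaf and 13 in root. Stem shared 29 of its own 100 highest genes with the leaf set and 40 with the root set, while callus shared 12 and 23.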

How the data were processed

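Per the labels, cDNA was made from poly(A)+ RNA and sequenced as paired ends on an Illumina instrument. Per the methods of the study, the authors trimmed and filtered reads, mapped them with TopHat and, keeping reads with a unique place in the genome, obtained FPKM from Cufflinks. The submitters' processing notes name TopHat 1.0.13, while the methods name a later version. Which run gave the deposited values is not stated. The deposited FPKM values and bounds for 38200 genes on 423 scaffolds were used as they stand. The methods name genome version 1.5 of the BRAD database, the table itself no build, and its starts, counted from 0, were raised by 1. Columns were matched to samples by title.

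A lower bound above 0 meant on. Fragments were derived as 4 × (FPKM / (upper bound - FPKM)) squared, which holds if the bounds reflect counting error alone. Fragments per FPKM and kilobase of locus reached a ceiling at genes without introns, its 99th percentile giving depth and, by division, coding length. The spread between plants is outside these intervals. limma 3.58.1 in R 4.3.3 (eBayes with trend, Benjamini-Hochberg adjustment) was run on log2(FPKM + 1), which understates the change of low genes. It covered genes reaching FPKM 1 in 2 or more of the 4 samples. The fit was checked on simulated data with the same spread for all genes and no difference between samples 1 and 2. That check therefore does not cover the sample differences seen here. Other steps ran in Python 3.11.15 with pandas 2.3.3, numpy 2.4.6, matplotlib 3.10.9 and scipy 1.17.1.

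Genes named were the 10 highest and 3 lowest members of each list, the members of the longest runs, the member highest in each other tissue, the 10 most abundant genes of each organ and the 5 largest differences in each direction. Genes at the edge of the rule or with the highest off value were named after their values were seen. The members and lists were chosen with earlier results of these data known. Alternatives changed the pseudocount, filter, scaling, trend, block, definition of on and off, depth, ranking and samples included.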

Additional observations from a re-analysis of the deposited data

How the results depend on the processing

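The share of genes higher in leaf ranged from 28.8% to 45.8% of the calls over the 15 alternatives to the limma fit, the last with each sample centred on its median gene. With the replicate number as a block, 19827 genes were called, 14109 of them higher in root. The differences of sample 2 from sample 1 in leaf and root had a correlation of 0.64 across 25725 genes, and the labels do not say that a number marks a shared batch. With one sample left out, the lone sample being assumed to vary like the others, 7215 to 9502 genes were called, 2721 to 3494 higher in leaf and 4387 to 6313 in root. The 10 genes of largest difference kept direction and call in 147 of 147 fits.

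With off taken as FPKM 0 in both samples, the lists held 366 leaf and 1043 root genes. An FPKM of at least 5 where on and under 0.5 where off gave 593 and 674, a smaller gap between the lists. An FPKM of at least 1 where on gave 1533 root genes. With one sample left out the leaf list held 1174 to 1641 genes and the root list 2603 to 3546, and at equal depth they held 1288 and 2691. For members on in other tissues, an FPKM of at least 1 gave 59.7% of leaf genes for stem, 57.3% for flower, 36.6% for silique and 36.8% for callus, and 12.1%, 21.0%, 23.2% and 43.0% of root genes. Members listed at 0 in the other organ gave 65.6%, 66.9%, 41.8% and 42.9% for leaf and 7.48%, 19.7%, 20.6% and 53.7% for root. The 5 measures of concentration kept their direction in all 12 alternatives, with the top 10 share differing by 2.05 to 13.2 percentage points. Depth limits both lists, since an off gene may hold up to 4 fragments.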
